A study of Mus musculus with 2 samples.

Results

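The 10 genes described here encode the core of transforming growth factor-beta (TGF-beta) signalling: the ligands Tgfb1, Tgfb2 and Tgfb3, the receptors Tgfbr1, Tgfbr2 and Tgfbr3, the latent TGF-beta binding proteins Ltbp1 and Ltbp2, and the intracellular mediators Smad3 and Smad7. They were taken by name, as a list, from the 20317 mouse genes with a symbol in the mRNA table, and all 10 were found there. Primary hepatocytes, the parenchymal cells of the liver, were sequenced after isolation from male wild-type (WT) C57BL/6J mice. One group was injected intraperitoneally with mineral oil alone. The other received carbon tetrachloride (CCl4), a liver toxin that causes fibrosis when given repeatedly, as a 20% solution in the same oil at 2.5 ml CCl4 per kg of body weight, 2 injections a week. The labels give 8 weeks of injection and the study's methods give 4 weeks, with mice obtained at 5 weeks of age. Each group is 1 library, so no difference below has a replicate check or a p-value, and the number of mice behind a library is not given in the sources used here. The hepatocytes came from perfused livers digested with pronase and collagenase and separated on a density gradient, and any cell carried along with them is in the library too.

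TGF-beta is secreted in a latent form, held inactive by its own propeptide, which latent binding proteins tether to the matrix. Once released by integrins or proteases, the ligand binds a type II receptor (Tgfbr2), which recruits and phosphorylates a type I receptor (Tgfbr1). The type I receptor then phosphorylates Smad2 and Smad3, which enter the nucleus with Smad4, and the inhibitory Smad7 closes the loop at the receptor. In the fibrotic liver the pathway is best known for driving stellate cells to become collagen-producing myofibroblasts. In hepatocytes it is known for growth arrest and cell death.

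The oil library held 57992578 reads and the CCl4 library 64655540, as recovered from the step sizes of the deposited values. Values are in RPKM, which scales reads to transcript length and library size, so levels can be compared between genes. No mRNA was listed between 0 and 1 RPKM, so a listed 0 stands for a level under 1 RPKM, and no fold change is given for it. Log2 fold changes are of RPKM + 0.1, and a gene was called higher or lower at a 2-fold limit (a log2 fold change of at least 1 in size). The median log2 fold change over all genes listed in both libraries was 0.30, so the deposited values as a whole lean towards the CCl4 library. A scaling to the median mRNA took 0.33 off each log2 ratio of RPKM, and at most this off each log2 fold change of RPKM + 0.1. The members and lists are given with it too where a count of calls changed. Of 12012 genes listed in at least 1 library, 15.5% were called higher and 5.25% lower in CCl4. After the scaling these shares were 8.44% and 9.52%.

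The sequences upstream of the members called higher are shown so that their base composition and motifs can be read beside the values. The RefSeq promoter table (GRCm38.p6, the assembly of mm10) matched 7 of the 10 members with 9 windows. Each window is the 250 bases before the start of 1 transcript. Printed are the windows of members called higher, other than those that run partly past the outermost start of the gene, 5′ to 3′ on the gene's strand, and capitals mark a GC box (GGGCGG, or CCGCCC on the other strand) or a SMAD CAGA box (CAGACA, or TGTCTG on the other strand). The 2 motifs share no bases in the windows shown.
Tgfb1, chr7:25686752-25687001, plus strand: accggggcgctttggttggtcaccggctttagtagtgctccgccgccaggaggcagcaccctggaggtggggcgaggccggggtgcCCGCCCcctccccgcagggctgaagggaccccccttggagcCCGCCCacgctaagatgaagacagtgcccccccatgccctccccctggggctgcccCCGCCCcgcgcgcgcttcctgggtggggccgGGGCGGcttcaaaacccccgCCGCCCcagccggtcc
Tgfbr1, chr4:47352972-47353221, plus strand: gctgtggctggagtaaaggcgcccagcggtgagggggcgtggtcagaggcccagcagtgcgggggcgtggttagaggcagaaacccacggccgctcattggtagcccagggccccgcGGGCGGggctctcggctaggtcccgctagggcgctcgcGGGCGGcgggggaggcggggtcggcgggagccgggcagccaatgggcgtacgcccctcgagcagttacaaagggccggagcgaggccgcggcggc
Tgfbr1, a transcript start inside the gene, chr4:47385966-47386215, plus strand: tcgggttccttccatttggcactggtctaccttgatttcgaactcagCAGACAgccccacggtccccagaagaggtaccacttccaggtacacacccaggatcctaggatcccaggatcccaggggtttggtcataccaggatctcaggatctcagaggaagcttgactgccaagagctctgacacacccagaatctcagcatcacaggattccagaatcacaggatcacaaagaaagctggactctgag
Ltbp1, a transcript start inside the gene, chr17:75178531-75178780, plus strand: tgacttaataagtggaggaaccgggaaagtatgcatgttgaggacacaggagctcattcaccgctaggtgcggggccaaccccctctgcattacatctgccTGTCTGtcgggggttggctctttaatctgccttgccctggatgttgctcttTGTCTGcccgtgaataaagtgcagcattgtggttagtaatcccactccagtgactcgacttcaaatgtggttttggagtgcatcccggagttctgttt

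The Tgfb1 window and the first Tgfbr1 window were the richest of the 9 in G and C, at 75.2% and 74.8%, against a median of 52.4% over all 32851 windows of the table. The Tgfb1 window held 5 GC boxes and the first Tgfbr1 window 2. The Tgfbr1 window inside the gene had a GC content of 52.8% and held 1 CAGA box. The Ltbp1 window shown had a GC content of 50.8% and held 2 CAGA boxes. Of all windows, 32.7% held at least 1 GC box and 17.1% at least 1 CAGA box. A match to these letters is a description of the sequence and was not tied to any binding in these cells. Among the windows not printed, that of Ltbp2 (chr12:84876492-84876741) had a GC content of 61.6% with 2 GC boxes, and the first of Ltbp1 (chr17:75005279-75005528) 56.8% with neither motif. Both overlap the range given for their gene, since their transcript starts inside it. The window of Smad3 had a GC content of 69.2% with 2 GC boxes. The Tgfbr2 window (58.4%) held neither motif, and the Tgfb2 window (53.6%) held 1 CAGA box. Tgfb3, Tgfbr3 and Smad7 had no entry.

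Of the ligands, Tgfb1 and Tgfb3 were higher in hepatocytes from CCl4-treated mice in comparison with the control, and Tgfb2 was listed at 0 in both libraries. Tgfb1, the ligand most studied in liver fibrosis (chr7:25687002-25705077), was at 6.75 RPKM in oil and 20.2 RPKM in CCl4. The difference came to a log2 fold change of 1.56, with a 95% counting interval, taken on the log2 ratio of reads, of 1.42 to 1.74. At least 410 and 1365 reads stood behind these levels. Tgfb3, the third isoform (chr12:86056743-86079041), had the highest log2 fold change of the 7 members with a value in both libraries, at 1.82 (interval 1.70 to 2.04). Its levels were low, at 1.81 RPKM in oil and 6.63 RPKM in CCl4. Both ligands stayed past the limit after the scaling, at log2 fold changes of 1.24 for Tgfb1 and 1.495 for Tgfb3. The Tgfb1 level was 3.72 times that of Tgfb3 in oil and 3.04 times in CCl4, so the order of the isoforms was the same in both libraries. Tgfb2 (chr1:186622787-186709697) is the isoform that depends most on betaglycan to reach its receptors. In a bulk library such as these, more RNA per cell and more cells of a type that carries the RNA cannot be told apart.

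**Figure D1:**
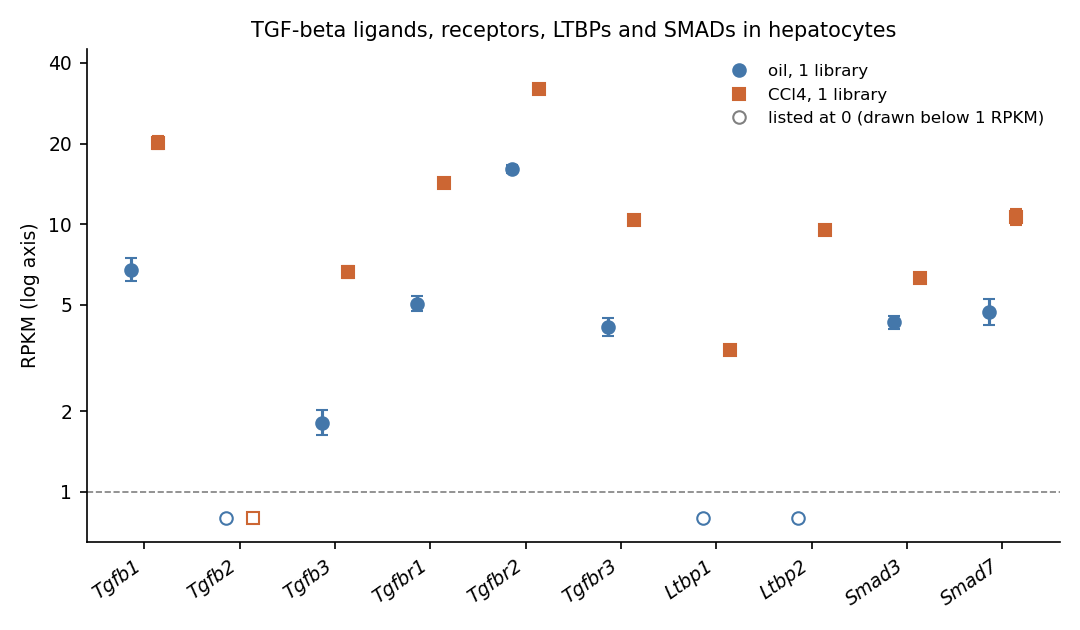
Level of each member in the oil library (circles) and the CCl4 library (squares), in RPKM on a log axis, 1 library per group. Bars are 95% exact Poisson intervals and cover counting error only, open symbols are values listed at 0 and drawn below the listing limit of 1 RPKM, and Ltbp1 and Ltbp2 have no interval. In the CCl4 library, 9 members lie above their oil value, and Tgfb2 is at 0 in both.

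All 3 receptors had more signal in the CCl4 library, and 2 of them passed the limit. Tgfbr1, the type I receptor kinase that passes the signal to SMADs (chr4:47353222-47414926), was at 5.04 RPKM in oil and 14.3 RPKM in CCl4. Its log2 fold change was 1.48 (interval 1.39 to 1.61), with at least 949 and 2992 reads. Tgfbr3, betaglycan, a co-receptor that presents ligand to the type II receptor (chr5:107106567-107289629), was at 4.12 and 10.4 RPKM, a log2 fold change of 1.31 (interval 1.197 to 1.46). After the scaling Tgfbr1 was still called, at 1.16, whereas Tgfbr3 lay just under the limit, at 0.99.

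Tgfbr2, the type II receptor that binds ligand first (chr9:116087695-116175363), was the member with the highest level in both libraries, at 16.0 RPKM in oil and 32.1 RPKM in CCl4. It sat on the limit itself. The log2 fold change of the transcript NM_029575 was 0.996, just short of it, with an interval of 0.94 to 1.06. The other listed transcript, NM_009371, was at 15.9 and 31.9 RPKM, a log2 fold change of 1.001, just past it. The 2 transcripts had near-equal values in each library, and their levels were not added. With the scaling the log2 fold change of Tgfbr2 was 0.67. The libraries were closer together for Tgfbr2 than for the other receptors. The Tgfbr2 level was 3.18 times that of Tgfbr1 in oil and 2.25 times in CCl4, and 3.89 and 3.10 times that of Tgfbr3.

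The latent binding proteins were listed at 0 in oil and above 0 in CCl4. Ltbp1, which is disulfide-linked to the TGF-beta propeptide and anchors it in the matrix (chr17:75005480-75392512), was at 3.39 RPKM in the CCl4 library. Its second listed transcript, NM_206958, was at 3.21 RPKM there and also at 0 in oil. Ltbp2, a microfibril protein of the same family that does not bind latent TGF-beta (chr12:84783212-84876558), was at 9.51 RPKM in CCl4. Both are called higher against the smallest listed value, and both entered the comparison only through the CCl4 library, so that a lower value there could not have been seen. No read number could be recovered for either.

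Of the SMADs, Smad7 passed the limit and Smad3 did not. Smad7, an inhibitory SMAD that brings ubiquitin ligases to the receptor and is itself a target of the pathway, was at 4.69 RPKM in oil and 10.6 RPKM in CCl4. Its log2 fold change was 1.16, and the interval, 0.99 to 1.37, reached below the limit. At least 312 and 788 reads stood behind these levels. Smad3, the receptor-activated SMAD that binds DNA (chr9:63646766-63757994), was at 4.29 RPKM in oil and 6.31 RPKM in CCl4. Its log2 fold change of 0.54 (interval 0.45 to 0.66) was the smallest of the 7 members with a value in both libraries. The counting intervals of Smad7 and Smad3 do not overlap, and the Smad7 level was 1.09 times that of Smad3 in oil and 1.68 times in CCl4. After the scaling the log2 fold changes were 0.84 for Smad7, under the limit, and 0.23 for Smad3.

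**Figure D2:**
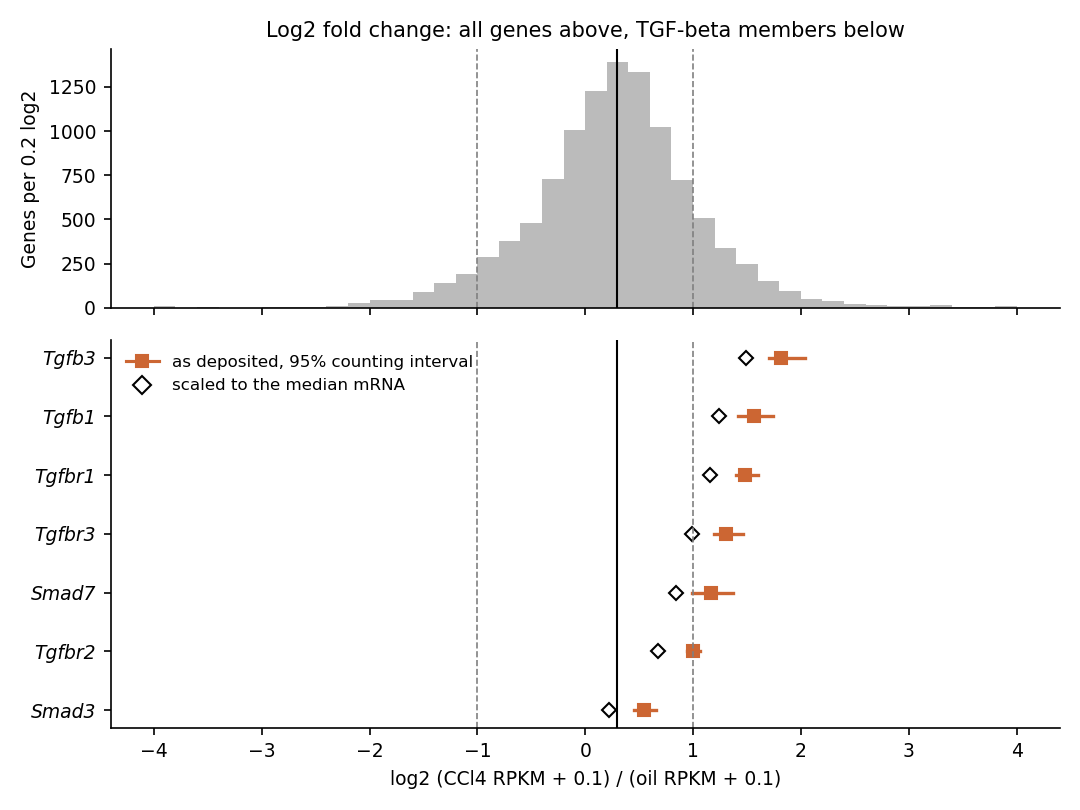
Upper panel, number of genes per 0.2 of log2 fold change among genes listed in both libraries, with the median of all genes (solid line, 0.30) and the 2-fold limits (dashed lines). Lower panel, log2 fold change of the 7 members listed in both libraries, as deposited (squares, with 95% counting intervals) and scaled to the median mRNA (diamonds). All 7 squares lie right of the median of all genes, and 3 diamonds lie past the upper limit.

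Counted together, 7 of the 10 members were called higher in CCl4 (Tgfb1, Tgfb3, Tgfbr1, Tgfbr3, Ltbp1, Ltbp2 and Smad7). These were 77.8% of the 9 listed, where 15.5% of all listed genes were called higher. None was called lower, where 5.25% of all genes were. Tgfbr2 and Smad3 stayed within the limit, and Tgfb2 was listed in neither library. With the scaling, 5 of 10 were called higher (Tgfb1, Tgfb3, Tgfbr1, Ltbp1 and Ltbp2), 55.6% of those listed, beside 8.44% of all genes. None was called lower with it, beside 9.52%. Ltbp1 and Ltbp2 are in both counts, although with a listed 0 in oil they could not have been called lower. Of the 7 members with both values, those called higher were Tgfb1, Tgfb3, Tgfbr1, Tgfbr3 and Smad7. With the scaling they were Tgfb1, Tgfb3 and Tgfbr1. The members were chosen with earlier results of these data known, so their share beside that of all genes is a description only. The median log2 fold change of the 7 members with both values was 1.31, against 0.30 for all genes. After the scaling the medians were 0.99 and −0.02.

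In oil the order of the levels was Tgfbr2, Tgfb1, Tgfbr1, Smad7, Smad3, Tgfbr3 and Tgfb3, with Ltbp1, Ltbp2 and Tgfb2 at 0. The 95% exact Poisson intervals of the levels of Tgfbr1 (4.72 to 5.37 RPKM) and Smad7 (4.18 to 5.24 RPKM) overlapped, as did those of Smad7 and Smad3 (4.06 to 4.54 RPKM), and of Smad3 and Tgfbr3 (3.81 to 4.46 RPKM). In CCl4 the order was Tgfbr2, Tgfb1, Tgfbr1, Smad7, Tgfbr3, Ltbp2, Tgfb3, Smad3, Ltbp1 and Tgfb2. Tgfbr2, Tgfb1 and Tgfbr1 led in both libraries, while Smad3 lay below Tgfbr3 in CCl4 with counting intervals that did not overlap. In CCl4 the intervals of Smad7 (9.90 to 11.4 RPKM) and Tgfbr3 (9.88 to 10.9 RPKM) overlapped, as did those of Tgfb3 (6.30 to 6.98 RPKM) and Smad3 (6.04 to 6.59 RPKM). By role, the summed level of the ligands was 8.57 RPKM in oil and 26.8 RPKM in CCl4, a ratio of 3.13. The receptors summed to 25.2 and 56.7 RPKM, a ratio of 2.25, and the SMADs to 8.98 and 16.9 RPKM, a ratio of 1.89. The ratio was thus largest for the ligands among the roles with a level in both libraries. Among all genes, Tgfbr2 ranked 2460 by level in oil and 1383 in CCl4, and Tgfb1 ranked 5041 and 2200.

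The rest of the pathway was described through 93 further genes in 7 lists by role, 2 of them (Thbs1 and Tgif1) in 2 lists. The lists too were chosen with earlier results of these data known, so their shares beside those of all genes are descriptions only. Of the 93, 36 were called higher and 3 lower (Plg, Inhbc and Gdf15), 40 were listed without a call and 14 were at 0 in both libraries. Those called higher were 45.6% of the 79 listed, beside 15.5% of all genes. Among them Bambi, Tgif2, Bmp10 and Bmper were listed at 0 in oil and could not have been called lower. The 3 called lower were of the same 79, beside 5.25% of all genes. The median log2 fold change of those with both values was 0.92. With the scaling, 27 were called higher (34.2% of those listed, beside 8.44%), and the median was 0.59. Called lower with it were 3 of the 79, beside 9.52% of all genes.

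Of the 18 genes that store and release latent TGF-beta, 10 were called higher and 1 lower, 3 were at 0 in both libraries (Itgb6, Itgb8 and Fbn2) and the median log2 fold change was 1.37. The 10 were 66.7% of the 15 listed, beside 15.5% of all genes, and 5.25% of all genes were called lower. With the scaling 8 were called higher (53.3%, beside 8.44%), and Nrros and Itgav no longer were. Emilin1, an elastic-fibre protein that holds back TGF-beta precursor processing, was at 26.4 RPKM in oil and 98.4 RPKM in CCl4. Fbn1, the fibrillin on which LTBPs are deposited, was at 1.12 RPKM in oil, just above the listing limit of 1 RPKM, and 8.91 RPKM in CCl4. Itga8, an integrin chain of myofibroblasts whose dimer binds the latency peptide, was at 2.17 and 13.3 RPKM. Itgb1, the beta chain that pairs with it, was at 32.1 and 59.7 RPKM, under the limit at a log2 fold change of 0.89. Plg, which encodes the hepatocyte product plasminogen, a protease precursor that can activate latent TGF-beta, was the 1 called lower, at 347 RPKM in oil and 158 RPKM in CCl4 (log2 fold change −1.14). Itgb6 and Itgb8 are the chains of the 2 integrins best known for activating latent TGF-beta, and neither reached the listing limit.

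Co-receptors, decoys and ligand-binding proteoglycans were called higher for 5 of 8 genes (Eng, Bambi, Dcn, Bgn and Fmod) and lower for none, and with the scaling for 4. Of the 6 listed these were 83.3% and 66.7%, beside 15.5% and 8.44% of all genes. Dcn and Bgn, matrix proteoglycans that bind TGF-beta, were at 36.1 and 14.1 RPKM in oil and 213.9 and 92.0 RPKM in CCl4, log2 fold changes of 2.56 and 2.70. Eng, endoglin, an endothelial co-receptor, was at 33.8 and 74.4 RPKM (log2 fold change 1.14, and 0.81 with the scaling). Bambi, a pseudoreceptor that dampens the signal, was listed at 0 in oil and 4.32 RPKM in CCl4, and Fmod was at 1.47 and 4.34 RPKM. Acvrl1, the type I receptor that works with endoglin, was listed without a call at 3.78 and 7.24 RPKM. Cd109 and Aspn were at 0 in both libraries.

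The other SMADs stayed closer together, and their share called higher, 1 of 6 or 16.7%, was near that of all genes (15.5%). With the scaling it was again 16.7%, beside 8.44% of all genes. The 1 called was Smad6, at 9.61 RPKM in oil and 27.2 RPKM in CCl4 (log2 fold change 1.49), and it is the second inhibitory SMAD, acting mainly on the bone morphogenetic protein (BMP) branch. Smad1 was at 7.97 and 9.54 RPKM, Smad4, the shared partner, at 7.45 and 9.80 RPKM, and Smad5 at 3.45 and 5.98 RPKM. Smad2, the partner of Smad3 downstream of Tgfbr1, was at 2.35 and 3.06 RPKM, a log2 fold change of 0.37. Of the 8 SMADs, the inhibitory Smad6 and Smad7 were thus the 2 called higher in the deposited values. With the scaling Smad6 stayed past the limit, at 1.17, and Smad7 did not.

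Among 14 regulators of SMADs, 3 were called higher (Ski, Dab2 and Tgif2) and none lower, and the median log2 fold change, 0.30, was that of all genes. The share called higher was 21.4%, beside 15.5% of all genes, and with the scaling 7.14% beside 8.44%. Ski, a co-repressor that binds SMADs, was at 4.95 RPKM in oil and 13.6 RPKM in CCl4. Dab2, an endocytic adaptor of the receptors, was at 4.93 and 11.3 RPKM, and Tgif2 was listed at 0 and 2.11 RPKM. With the scaling Ski alone remained called. The most abundant regulators differed little between the libraries: the SMAD phosphatase Ppm1a was at 21.4 and 19.3 RPKM, and the deubiquitinases Usp4 and Usp15 at 16.3 and 15.0 RPKM and at 9.34 and 9.55 RPKM. Nedd4l, a ubiquitin ligase for activated SMADs, was at 4.94 and 3.09 RPKM, and Zfyve9, which anchors SMADs at endosomes, at 3.04 and 2.47 RPKM.

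TGF-beta response genes had the highest median log2 fold change of the 7 lists, 1.82, with 12 of 22 called higher and none lower. The 12 were 60% of those listed, beside 15.5% of all genes. The largest log2 fold changes were those of Col1a1, Col1a2, Postn and Col3a1, genes of matrix proteins. Col1a1 was at 3.02 RPKM in oil and 130.5 RPKM in CCl4, Col1a2 at 6.69 and 141.8 RPKM, and Col3a1 at 19.6 and 290.1 RPKM. Postn, periostin, was at 1.43 and 25.6 RPKM. Fn1, fibronectin, which hepatocytes also secrete into plasma, and the immediate early gene Junb were at 113.3 and 94.2 RPKM and at 98.5 and 81.6 RPKM, within the limit. Ccn2, connective tissue growth factor, was at 7.04 and 25.04 RPKM. Cdkn1a was at 11.0 and 9.19 RPKM, a log2 fold change of −0.26, and Cdkn2b was listed at 0 and 1.45 RPKM, neither with a call. Whether the RNA of the response genes came from hepatocytes or from other cells in the libraries was not tested. With the scaling 11 were called, 55% of those listed beside 8.44% of all genes, and Timp1 was no longer among them.

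**Figure D3:**
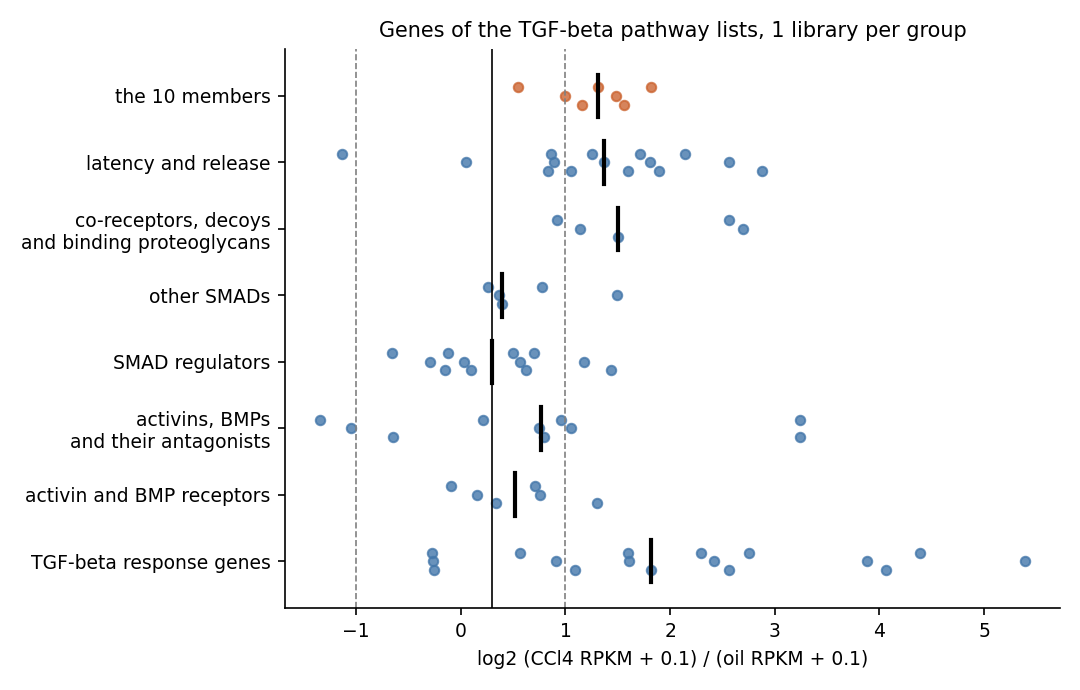
Log2 fold change (CCl4 over oil, RPKM + 0.1) of each gene listed in both libraries, for the 10 members (top row, 7 points) and the 7 pathway lists, with the list median as a black bar, the median of all genes as a solid line (0.30) and the 2-fold limits as dashed lines. Medians run from 0.30 in the SMAD regulators to 1.82 in the response genes.

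The hepatocyte label was checked against marker lists, since several members are known from other liver cells. All 10 hepatocyte markers were listed in both libraries, and their summed level was 18107 RPKM in oil and 10361 RPKM in CCl4. Of the 10, 6 were called lower, beside 5.25% of all genes, and none higher, beside 15.5%. With the scaling 9 were called lower, beside 9.52% of all genes. Alb was at 8656 and 6476 RPKM, Apoa1 at 4086 and 1650 RPKM and Ttr at 2047 and 1250 RPKM. This list had the highest sum of the 9 marker lists in both libraries, and the only sum that was lower in CCl4.

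Markers of other liver cells differed between the libraries by cell type. Of all genes, 15.5% were called higher, and 8.44% with the scaling. All 10 markers of stellate cells and myofibroblasts were called higher, with a summed level of 27.1 RPKM in oil and 255.2 RPKM in CCl4, a ratio of 9.43. Only 6 of the 10 were listed in both libraries, and the others, at 0 in oil, could not have been called lower. Of their defining markers, Des was at 1.41 and 10.5 RPKM, Lrat at 1.84 and 23.6 RPKM and Reln at 4.009 and 43.4 RPKM, while Pdgfrb, Ngfr, Hand2 and Lox were listed at 0 in oil. Portal fibroblast markers summed to 19.8 and 68.1 RPKM, with 5 of 8 called higher (71.4% of those listed) and Gli1 at 0 in both. The stellate ratio was above that of every member with a value in both libraries. The portal fibroblast ratio, 3.44, lay between those of Tgfb1, at 2.99, and Tgfb3, at 3.66. So did the cholangiocyte ratio, 3.35, while the macrophage and platelet ratios, 2.84 and 2.78, lay near that of Tgfbr1, at 2.83. The sinusoidal endothelial, mesothelial and lymphocyte ratios, 1.72, 1.67 and 1.36, were lower than these. The ratios are only set side by side, and which cells carried the members' RNA was not tested.

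Kupffer cell and macrophage markers summed to 1117 RPKM in oil and 3167 RPKM in CCl4, a ratio of 2.84, and without Lyz2, the most abundant of them, the ratio was 1.91. Of the 10, 7 were called higher (70%, beside 15.5% of all genes). With the scaling 3 were (Marco, Lyz2 and Cx3cr1, 30% beside 8.44%). The first 3 of the list, Clec4f (283 and 255 RPKM), Vsig4 (65.6 and 97.6 RPKM) and Timd4 (13.1 and 17.1 RPKM), were not called, while Cd5l and Marco, which resident Kupffer cells also express, were, at 278 and 595 RPKM and at 42.3 and 277.9 RPKM. Sinusoidal endothelial markers summed to 608 and 1043 RPKM, a ratio of 1.72, with 2 of 10 called higher, near the share of all genes, and none with the scaling. Platelet markers, from a cell type rich in TGF-beta1 protein, summed to 10.9 and 30.3 RPKM. Of the 7, 2 were called higher (50% of those listed), and 1 with the scaling (25%). Gp1ba, Gp1bb and Treml1 were at 0 in both. Lymphocyte markers summed to 12.7 and 17.3 RPKM (2 of 9 higher, 28.6% of those listed), but their median log2 fold change was −0.29. Cd3e and Cd8a were at 0 in both. Of 6 cholangiocyte markers, 2 were called higher (50% of those listed), and 1 with the scaling (25%). They summed to 50.9 and 170.2 RPKM, with Sox9 and Cftr at 0 in both. Spp1 made up most of that sum, and without it the sums were 13.4 and 25.1 RPKM, a ratio of 1.87. Mesothelial markers summed to 34.3 and 57.3 RPKM (2 of 5 higher, or 40%, beside 15.5% of all genes). No marker list other than that of hepatocytes had a gene called lower. With the scaling, the share of listed markers called higher was 100% for stellate cells, 71.4% for portal fibroblasts and 40% for mesothelial cells. It was 30% for macrophages, 28.6% for lymphocytes, 25% for platelets and for cholangiocytes and 0% for sinusoidal endothelium, beside 8.44% of all genes. The stellate, portal fibroblast, mesothelial and lymphocyte shares include markers at 0 in oil, which could not have been called lower. Tgfb1, Tgfb3, Tgfbr1, Ltbp1 and Ltbp2 were called higher with the scaling too, and the part of these lists in the members' results was not tested.

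**Figure D4:**
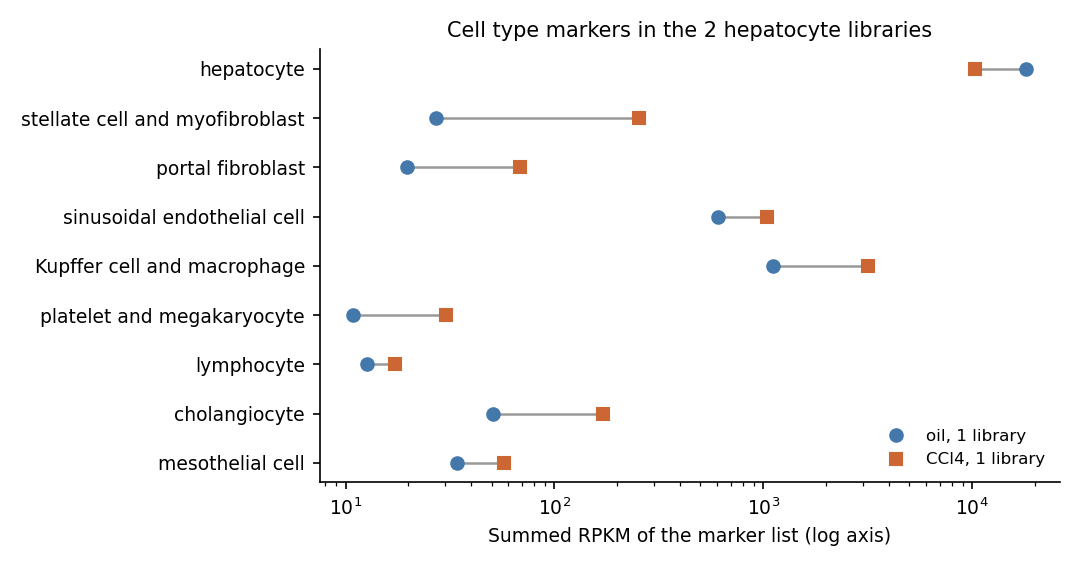
Summed RPKM of each cell type marker list in the oil library (circles) and the CCl4 library (squares), on a log axis, 1 library per group. The hepatocyte sum is lower in CCl4 (10361 against 18107 RPKM), every other sum is higher, and the stellate cell and myofibroblast list has the largest ratio, 9.43.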

How the data were processed

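The authors sequenced total RNA of 2 hepatocyte libraries, and per the submitters' processing notes CASAVA 1.4, TopHat2 and the mouse build mm10 were used. The read counter, the annotation version and whether mice were pooled are not given in the sources used here. The deposited mRNA table holds RPKM per RefSeq transcript for each library, beside the authors' own log2 change, p-values and q-values, which were not used. The deposited lncRNA tables hold RPKM and read counts, and served only to find library totals and to check the recovery of reads. With 1 library per group nothing was tested.

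Of 27457 transcripts, 27049 were matched to symbols through the RefSeq table (GRCm38.p6) and 408 were not. A gene is its transcript with the highest mean RPKM. The log2 fold change used a pseudocount of 0.1 RPKM, and a call a 2-fold limit. For the call alone, a listed 0 was set at the smallest value above 0 (1.00035 RPKM). Totals were recovered from the RPKM steps of short genes (213 of 225 in oil and 227 of 240 in CCl4 gave whole reads, within 0.05 of a whole number). Read numbers of members are lower bounds, from the shortest length that gives whole reads in both libraries. Checked on the new lncRNAs, whose counts are deposited, recovered reads were equal for 1131 of 1397 and never above the count. The RPKM of that table rest on other totals, 62438205 reads in oil and 70960848 in CCl4. The 95% intervals are exact Clopper-Pearson (ratios) and exact Poisson (levels) and cover counting error only. For counting error they are if anything too wide, since the read numbers are lower bounds. They hold nothing of the spread between mice or isolations, and are too narrow for a statement on oil and CCl4 mice. Members and lists were chosen with earlier results of these data known. Named from each pathway list were the 3 genes with the highest mean, the 2 with the largest difference in each direction and those behind a count of 5 or fewer, and the first 3 markers of a list. A few others (Itgb6, Itgb8, Fbn2, Nrros, Itgav, Acvrl1, Cd109, Aspn, Smad2, Ccn2, Postn, Timp1, Cdkn1a, Cdkn2b, Id1, Inhbb, Bmp6, Fst, Chrd and markers beyond the first 3) were named after their values were seen. Alternatives were the pseudocount, the scaling, the limit, summed transcripts, a mean filter, other handling of a listed 0 and, added after seeing the data, no pseudocount and marker sums without the most abundant gene. Scripts were tested on simulated data. Python 3.11.15, numpy 2.4.6, pandas 2.3.3, scipy 1.17.1 and matplotlib 3.10.9 were used.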

Additional observations from a re-analysis of the deposited data

How the results depend on the processing

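Across the alternatives, 105 values stayed close to those reported, which means within 1.5 times for a count and within the reach of a 95% counting interval to 1 side for a log2 fold change. A further 34 moved and 1 changed sign. With the scaling to the median mRNA the members' median log2 fold change was 0.99, and the median of the SMAD regulators changed sign to −0.021, while 5 members and 27 pathway genes were called higher. The members' median was 1.15 with a pseudocount of 1 RPKM and 1.48 with a listed 0 taken as 0. For the settings that follow, the share of all genes called is not given, so their counts cannot be set against it. At a 4-fold limit, 1 member (Ltbp2, by its bound) and 17 pathway genes were called higher and 0 lower. At a 1.5-fold limit, 50 pathway genes were called higher and 5 lower. With a listed 0 taken as 0, 41 were called higher and 5 lower. When genes had to reach a mean of 5 RPKM, 4 members were called higher (Tgfb1, Tgfbr1, Tgfbr3 and Smad7). Tgfbr2 was called higher, making 8 members, with RPKM summed over transcripts, at the 1.5-fold limit and, added after seeing the data, with no pseudocount. The cause of these shifts was not tested, beyond the change of limit or filter itself. No paired analysis was possible because each group has 1 library, and for the same reason no library could be left out. The listing limit of 1 RPKM sets what can be seen of Tgfb2, Ltbp1 and Ltbp2, and the spread between mice is unknown.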

Other observations

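The BMP and activin branch, which shares Smad4 and the inhibitory SMADs with TGF-beta, held both higher and lower genes. Of 19 activins, BMPs and their antagonists, 5 were called higher in CCl4 (Gdf2, Bmp5, Bmp6, Bmp10 and Bmper) and 2 lower (Gdf15 and Inhbc), and the median log2 fold change was 0.77. The 5 were 35.7% of the 14 listed, beside 15.5% of all genes called higher, and 5.25% of all genes were called lower. Gdf2, which encodes BMP9, a ligand known from stellate cells that signals through endoglin and Acvrl1, was at 4.78 RPKM in oil and 46.0 RPKM in CCl4, a log2 fold change of 3.24. Bmp10, the nearest relative of Gdf2, was listed at 0 in oil and at 6.37 RPKM in CCl4. Bmp5 was at 1.12 and 11.4 RPKM, also a log2 fold change of 3.24, but from an oil value just above the listing limit of 1 RPKM. Bmp6, an endothelial signal for hepcidin, was at 5.89 and 12.3 RPKM, and Bmper, a BMP-binding protein, was listed at 0 and 2.22 RPKM. With a listed 0 in oil, Bmp10 and Bmper could not have been called lower. Fst and Chrd went the other way, at 1.29 and 1.27 RPKM in oil and listed at 0 in CCl4, without a call. Bmp2 was at 23.7 and 41.2 RPKM, without a call, and had the highest level of the list's BMPs in oil, while Gdf2 was above it in CCl4. With the scaling 3 were called higher (Gdf2, Bmp5 and Bmp10, 21.4% of those listed) and the same 2 lower, beside 8.44% and 9.52% of all genes.

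The 2 called lower were Inhbc, an activin chain made by hepatocytes, at 10.4 RPKM in oil and 4.03 RPKM in CCl4 (log2 fold change −1.34), and Gdf15, a stress-induced relative of the family, at 32.2 and 15.5 RPKM (−1.05). Inhbb, a further activin chain, was at 13.3 and 8.44 RPKM, within the limit. Of 8 activin and BMP receptors, Acvr1 alone was called higher, at 1.67 and 4.27 RPKM, and with the scaling it was not (0.99). That is 16.7% of the receptors listed, near the 15.5% of all genes. Bmpr2 was at 5.39 and 9.17 RPKM, Acvr1b at 3.55 and 5.87 RPKM, Bmpr1a at 2.88 and 3.65 RPKM and Acvr2b at 1.48 and 1.38 RPKM. Id1, a BMP target, was at 16.1 and 30.4 RPKM, a log2 fold change of 0.91. The summed stellate cell markers, 27.1 RPKM in oil and 255.2 RPKM in CCl4, were higher along with Gdf2, Bmp5 and Bmp10, and the summed hepatocyte markers, 18107 and 10361 RPKM, were lower along with Inhbc and Gdf15. Their part was not tested.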
